A study of Mus musculus with 6 samples.

Results

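The guides described here were aimed at the upstream translons of Eif5, Bzw1 and Eif2s2, mouse genes whose products set how strictly a ribosome chooses its start codon. An upstream translon is a stretch of an mRNA that ribosomes translate before they reach the main coding sequence. All rows whose guide name gave one of these 3 host genes were taken, which made 6 of the 145 targeting guides and 3 of the 73 host genes in the table. They were followed in a pooled CRISPR-Cas9 growth screen in mouse embryonic stem cells of a single line (#693 ES C57BL/6, genotype given as C57/BL6). Day 0 and day 10 were each sampled in 3 biological replicates, and the column headers number these as screens 1 to 3. Cells of both days carried the same lentiviral pool, in which a vector (lentiCRISPR v2) expresses Cas9 together with a guide. Day 0 is therefore not a control without the pool, and how far cutting had gone by day 0 was not measured. How day 0 relates in time to infection or selection is not given in the sources used here, and all libraries come from 1 line. Counts of guide cassettes were measured, and neither the translons nor the host mRNAs or proteins were.

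The initiator tRNA reaches the small ribosomal subunit in a complex with the GTPase eIF2, and the subunit then scans the mRNA for a start codon. Eif2s2 encodes the beta subunit of eIF2. Eif5 encodes eIF5, which makes eIF2 hydrolyse GTP when a start codon is met, and an excess of eIF5 lets more near-cognate codons and codons in poor context through. Bzw1 encodes an eIF5-mimic protein that resembles the carboxy-terminal part of eIF5 but does not have its GTPase-activating part, and it competes with eIF5 and makes selection stricter. The mRNAs of such factors are known to be under control by upstream translation and weak start codons themselves.

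The 6 guide sequences are printed because the comparisons below turn on how the guides of a host lie to each other. They are given 5′ to 3′ as deposited, without the neighbouring PAM, a short NGG sequence in the genome without which Cas9 does not cut. For Eif2s2 the capitals mark the bases the guides share. For Bzw1 they mark ends that are reverse complements of each other.
Eif2s2 guide 1: TAGTTCGAGCGGGTTCGGCa
Eif2s2 guide 2: gTAGTTCGAGCGGGTTCGGC
Eif5 guide 1: agtcccgggcgagccgcgtt
Eif5 guide 2: taaacgactgcaagagttct
Bzw1 guide 1: cgccgcagttgccgCCAGCT
Bzw1 guide 2: gccagaaatccccgAGCTGG
The Eif2s2 guides share 19 of 20 bases and are shifted by 1 base on the same strand, so they are close to a single reagent. Their predicted cuts, taken between the third and the fourth base from the PAM, lie 1 base apart. The Bzw1 guides can be joined through 6 bases on opposite strands, and in the joined sequence each guide is followed by CGG, a PAM, that the other guide supplies. The predicted cuts of the Bzw1 guides are then 0 bases apart. The Eif5 guides share no stretch longer than 4 bases, so that they are separate reagents. GC content was 60% and 65% for Eif2s2 guides 1 and 2, 75% and 40% for Eif5 guides 1 and 2, and 75% and 65% for Bzw1 guides 1 and 2, against a median of 60% over the 136 tested guides. None of the 6 sequences (0) holds an ATG on the printed strand or, read as CAT, on the other. None (0 of 6) was found in the RefSeq windows of GRCm38.p6 that run from 250 bases before to 50 bases after a gene's start, where 15 of the 151 named guides were. Positions in the genome were not analysed here.

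Named guides had between 21991 counts, in day 10 of screen 3, and 784149 counts, in day 10 of screen 2, and the 6 guides were counted in all 6 libraries. Their smallest counts were in day 10 of screen 3, where they ran from 37 for Bzw1 guide 2 to 441 for Eif2s2 guide 2. Abundance is given as counts per 1e6 counts (CPM), after scaling of the libraries by the trimmed mean of M-values. A positive log2 fold change means more of a guide at day 10. Intervals on a fold change are 95% intervals from the fit, and intervals within a screen are exact binomial and cover counting error only.

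Of the 6 guides, 1 changed between the days, Bzw1 guide 2, which fell (edgeR quasi-likelihood test, Benjamini-Hochberg adjusted p under 0.05). Over all 136 tested guides 21.3% changed and 14.7% were lower, so 1 of 6 is close to the background of the screen. At an unadjusted p under 0.05 there were 2 of the 6, both of them Bzw1 guides, against 34.6% over all tested guides. The same 2 guides had no overlap in CPM between the days, Bzw1 guide 2 with lower day 10 values, as for 20.6% of tested guides, and Bzw1 guide 1 with higher ones, as for 17.6%. The median log2 fold change of the 6 guides was −0.10 and that of all tested guides 0.0024. With the guides of a host summed, 0 of the 3 hosts were past the threshold in edgeR, against 37.3% of all 67 tested hosts, and 0 had an unadjusted p under 0.05, against 46.3%. DESeq2 also called 0 of the 3 hosts at either threshold, and limma voom with a variance per day called 1, Eif5. Of the 6 guides, DESeq2 called 2, both of Bzw1, and limma voom called 3, these and Eif5 guide 2. Over all 136 tested guides these tests called 28 and 50.

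Eif2s2, the eIF2 subunit, was the most abundant of the 3 hosts. Its guides together made up 2.89% of the day 0 counts and ranked 6 of 67 among the tested hosts. Guide 1 had 9562, 9217 and 9363 CPM at day 0 of screens 1 to 3 and 9526, 9464 and 8122 CPM at day 10. The days overlapped, and the lowest value was that of day 10 in screen 3, which rested on 179 counts. The fitted log2 fold change of guide 1 was −0.029 ± 0.078 (SE; adjusted p = 0.869, edgeR).

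Eif2s2 guide 2, shifted by 1 base, had 19299, 19914 and 19239 CPM at day 0 and 21417, 19557 and 20010 CPM at day 10. The days overlapped here too, with day 10 of screen 1 as the highest value. The fit gave a log2 fold change of 0.064 ± 0.060 (SE; adjusted p = 0.510, edgeR). With both guides summed, the host was at 0.032 on the same scale, with a 95% interval from −0.073 to 0.14 (adjusted p = 0.665, edgeR). This was the narrowest interval among the 3 hosts. The sign of this small value was not stable, since it was −0.011 without day 10 replicate 1 and −0.013 without both libraries of screen 1.

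Eif5, the GTPase-activating factor, was much rarer, at 0.468% of the day 0 counts and rank 53 of 67. Guide 1 had 2571, 2670 and 2677 CPM at day 0 of screens 1 to 3 and 1999, 2489 and 2722 CPM at day 10. Day 10 lay below each day 0 library in screens 1 and 2 and above them in screen 3, so the days overlapped. The log2 fold change fitted to guide 1 was −0.16 ± 0.14 (SE; adjusted p = 0.481, edgeR).

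Eif5 guide 2 had 2171, 1824 and 2121 CPM at day 0 and 1424, 1701 and 2178 CPM at day 10. It showed the same order of the day 10 libraries as guide 1, lowest in screen 1 and highest in screen 3, although the sequences are unrelated. Guide 2 had a fitted log2 fold change of −0.26 ± 0.18 (SE; adjusted p = 0.339, edgeR). It passed the threshold in 1 of its 20 alternatives, limma voom with a variance per day (−0.40, adjusted p = 0.0307). Within screens the summed guides had log2 ratios of day 10 over day 0 of −0.47 (counting interval −0.61 to −0.33), −0.10 (−0.24 to 0.036) and 0.031 (−0.26 to 0.31). With this scaling the difference was beyond counting error in screen 1 alone. In screen 1 the same held for each control guide (non-targeting or cutting in safe regions) except Safe_target_1. With control guide size factors the ratios were −0.26, −0.13 and −0.13, so screen 1 stood less apart and the sign in screen 3 turned. Over all screens the host was at −0.23 on the log2 scale with a 95% interval from −0.49 to 0.021 (adjusted p = 0.129, edgeR), which moved to −0.13 without day 10 replicate 1. With limma voom and a variance per day it was −0.29 (adjusted p = 0.0259), the lowest adjusted p of its 17 alternatives, which reached 0.689.

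Of the guides against Bzw1, the eIF5-mimic, guide 2 fell, while guide 1 had a positive value that narrowly missed the threshold. Guide 1 had 6728, 6600 and 6452 CPM at day 0 of screens 1 to 3 and 8684, 7414 and 7487 CPM at day 10. All day 10 libraries were above all day 0 libraries, the most so in screen 1. The log2 fold change was 0.27 ± 0.088 (SE; 95% interval 0.070 to 0.46), and with an adjusted p of 0.0564 in edgeR it was not past the threshold. It was past it without day 10 replicate 2 (adjusted p = 0.0269) or 3 (0.0373). Removal of day 10 replicate 1 took the value to 0.17 (0.117). Over its 20 alternatives the adjusted p ran from 0.0125 to 0.477.

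Bzw1 guide 2 had 2191, 2000 and 2234 CPM at day 0 and 991, 1570 and 1679 CPM at day 10. All day 10 libraries were below all day 0 libraries, and day 10 of screen 1 was far the lowest. Mean abundance was 2142 ± 124 CPM at day 0 and 1413 ± 369 CPM at day 10 (SD, n = 3 each). The fitted log2 fold change was −0.65 ± 0.21 (SE; 95% interval −1.10 to −0.19; adjusted p = 0.0459, edgeR). This placed it 9 of 136 from the lowest, with the largest adjusted p among the 29 guides past the threshold. The fall was −1.14 (counting interval −1.37 to −0.92) in screen 1, −0.35 (−0.56 to −0.14) in screen 2 and −0.41 (−0.92 to 0.058) in screen 3. The call was lost with the replicate number as a block (adjusted p = 0.0711), with control guide size factors (0.117) and with no count filter (0.0509). It was lost without day 0 replicate 1, 2 or 3 (0.163, 0.126 and 0.177), and without both libraries of screen 1, 2 or 3 (0.0843, 0.123 and 0.110). Removal of a GC trend per library, described below, also lost the call, alone (0.0754) or with the replicate block (0.0586). The direction was the same in all 20 alternatives fitted, with log2 fold changes from −0.80 to −0.43 and adjusted p-values from 0.0063 to 0.177, of which 9 were under the threshold.

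Summed over its guides, Bzw1 cannot show this split. The host had 8919, 8600 and 8686 CPM at day 0 and 9676, 8983 and 9166 CPM at day 10. The day 10 values were above the day 0 values without overlap, as for 26.9% of all hosts, and the log2 fold change was 0.090 with a 95% interval from −0.081 to 0.26 (adjusted p = 0.447, edgeR). Bzw1 was the only host of the 3 without overlap of the days. Its sum is mostly guide 1 (74.3% to 76.7% of the counts at day 0, 81.7% to 89.8% at day 10), and guide 2 went the other way.

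The ratio of the guides of a host within a library needs no scaling between libraries. Bzw1 guide 1 made up 75.4%, 76.7% and 74.3% of the Bzw1 counts at day 0 of screens 1 to 3, and 89.8%, 82.5% and 81.7% at day 10. Exact binomial 95% intervals reached at most 79.4% at day 0 and began at 75.6% in day 10 of screen 3, where only 202 counts were available, and at 81.6% or above in the other day 10 libraries. The ratio of guide 1 to guide 2 therefore went from between 2.89 and 3.30 at day 0 to between 4.46 and 8.76 at day 10. The change was 0.89 on the log2 scale, with the same direction in 3 of 3 screens (1.51, 0.52 and 0.63). A two-sided exact permutation test of this change had p = 0.1, the smallest value possible with 3 libraries per day, and 0.3 when adjusted over the 3 hosts.

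In the other hosts the guides kept closer to each other. The log2 ratio of guide 1 to guide 2 changed by 0.077 for Eif5 (exact permutation p = 0.7, adjusted 0.7) and by −0.12 for Eif2s2 (exact permutation p = 0.2, adjusted 0.3), with overlap of the days in both. Over the 63 hosts with both guides tested, the fitted log2 fold changes of the guides differed by a median of 0.18. Bzw1, at 0.91, ranked 2 of 63 from the largest difference, after Rps6, at 2.08, whose guide 1 had no count in 2 of the day 10 libraries. Eif2s2 and Eif5 ranked 43 and 44, at 0.093 each. Guides had opposite signs in 23 of the 63 hosts, among them Bzw1 and Eif2s2.

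The split in Bzw1 is described further because its guides have a single predicted cut position. Guide pairs with predicted cuts at most 2 bases apart were searched for in all 63 hosts, after the Bzw1 values had been seen. There were 6 such hosts, with 19 shared bases on one strand (Eif2s2, Pa2g4, Psmd1 and Trim43b) or opposite guides that supply each other's PAM (Bzw1 and Nhp2). The differences between the guides were 0.036 for Pa2g4, 0.093 for Eif2s2, 0.11 for Trim43b, 0.17 for Nhp2, 0.62 for Psmd1 and 0.91 for Bzw1. Psmd1 guide 2 had no count in day 10 of screen 1. Both Nhp2 guides lie in a RefSeq window, where the bases after them were AGG and GGG as the joined guides gave them. The Bzw1 guides were not found in the RefSeq window of Bzw1, so their shared position rests on the guide sequences alone.

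GC content moved with the counts of 1 library, day 10 of screen 1. There log2 abundance relative to day 0 was higher by 0.23 per 10 percentage points of GC, or by 0.11 with Psmd1 guide 2 left out, against −0.014 to 0.025 in the other 5 libraries. With this trend removed per library, Bzw1 guide 1, at 75% GC, had a log2 fold change of 0.12 (adjusted p = 0.339, edgeR) and Bzw1 guide 2, at 65%, one of −0.68 (0.0754). The value of guide 2 was thus as large without the trend, while that of guide 1 was smaller. For Eif5 the trend bore on the guides in opposite ways, to −0.29 for guide 1 (75% GC) and −0.068 for guide 2 (40% GC), neither past the threshold (adjusted p = 0.333 and 0.827, edgeR). With Psmd1 guide 2 left out and the trend removed, Bzw1 guide 1 was at 0.19 (0.122) and guide 2 at −0.70 (0.0213). Eif5 guides 1 and 2 were then at −0.25 (0.247) and −0.18 (0.431), so the small value of Eif5 guide 2 above depended on Psmd1 guide 2.

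The 6 control guides, which are non-targeting or cut in regions taken as safe, show how far guides with no translon target moved. Their log2 fold changes ran from −0.42 to 0.55. Bzw1 guide 2 lay below this range, and the other 5 guides lay within it. Within single screens all 6 guides were inside the range of the controls, which was −1.33 to 1.18 in screen 1, −0.44 to 0.35 in screen 2 and −0.47 to 0.84 in screen 3. At day 0 the control guides had 709 to 3038 CPM, levels like those of the Eif5 guides and Bzw1 guide 2 and below those of Bzw1 guide 1 and the Eif2s2 guides.

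The hosts were also compared with each other by the ratio of their summed counts. Eif5 was lower relative to Bzw1 at day 10, by a change of −0.27 on the log2 scale (exact permutation p = 0.3, adjusted 0.4) and relative to Eif2s2 by −0.20 (p = 0.4, adjusted 0.4, exact), with overlap of the days in both. Bzw1 was higher relative to Eif2s2 by 0.062 between the day means, with no overlap, at the smallest exact permutation p of 0.1 (adjusted over the 3 pairs, 0.3). The direction was the same in 3 of 3 screens, at 0.017, 0.068 and 0.10 in screens 1 to 3. None of these 3 comparisons can pass 0.05 with 3 libraries per day.

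Other translation genes were given by lists written from gene symbols. The list for initiation held 5 hosts, namely the 3 described and Pabpc1 and Pabpc4, which encode poly(A)-binding proteins. The latter were lower at day 10, Pabpc4 with a log2 fold change of −0.43 ± 0.049 (SE; adjusted p = 8.3e-06, edgeR) and Pabpc1 with one of −0.089 ± 0.030 (SE; 0.0255). Pabpc1 was over the threshold with DESeq2 (0.233), with limma voom (0.137), without day 0 replicate 2 or day 10 replicate 1 or 3 (0.137, 0.0773 and 0.0949), and without screen 1 (0.152). Eif5a, whose product acts mainly in elongation despite its name, was higher at 0.55 ± 0.13 (SE; adjusted p = 0.00366, edgeR), and without screen 2 it was at 0.36 (0.0613). Among ribosomal protein hosts, Rps12 (1 tested guide only), Rps6 and Rpl32 were lower, and Rps9 and Rpl41 were not past the threshold, at 0.14 and −0.19. The last 2 values depended on single libraries, with Rps9 at 0.28 (adjusted p = 0.0441) and Rpl41 at −0.56 (0.00348) without day 10 replicate 2, and at −0.0035 and 0.071 without day 10 replicate 1. Rpl32 was over the threshold without day 0 replicate 1 (0.0641) and without screen 2 (0.0613), and Rps6 without screen 3 (0.0508). Over all 67 tested hosts, 22.4% were lower and 14.9% were higher. The median of the initiation list was −0.089, against 0.020 for all hosts. In this list of 5 that median is the value of Pabpc1 alone, and Eif5, Bzw1 and Eif2s2 were at −0.23, 0.090 and 0.032. With control guide size factors, Rps12 was past the threshold, and the other translation hosts named here were not.

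The hosts with the most similar course over the 3 screens were found by the root mean square difference in the within-screen log2 ratios, among 66 other hosts. For Bzw1 they were Nr1h2 (0.023), Gldc (0.026) and Parg (0.039), against a median of 0.20. For Eif2s2 they were Hsp90ab1 (0.032), Sfpq (0.043) and Nhp2 (0.044), against 0.22. These 6 hosts had small changes, with log2 fold changes from 0.020 to 0.10. For Eif5 they were Fbp2 (0.086), Rpl32 (0.14) and Jarid2 (0.15), against 0.34, so Eif5 had less close neighbours than the other 2 hosts. Fbp2 had the same pattern of a low screen 1, at −0.47, −0.052 and 0.17. The hosts were chosen by these ratios, so their likeness to the members, small changes included, follows from the choice. Rpl32, a ribosomal protein gene, was lower in each screen, at −0.30 ± 0.082 (SE; adjusted p = 0.00974, edgeR). It was the only 1 of these 9 past the threshold, against 37.3% of all 67 tested hosts.

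Among the 216 sequences without a name in the table, 2 shared at least 10 bases in a row with one of the 6 guides, and each of these had a single count. The Eif2s2 guides share 11 bases with Eif5a guide 2, the longest stretch that any of the 6 guides shares with a guide of another host. The counts of the Eif2s2 guides depend on how the authors' counting told sequences shifted by 1 base apart, and its rule for mismatches is not given in the sources used here.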

How the data were processed

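The authors deposited raw counts in 1 table, in which rows are guide sequences and columns are libraries, per the file headers. Bowtie2 2.3.4.3 is named in the submitters' processing notes without its role. The mismatch rule is not given in the sources used here. Missing entries were read as counts of 0. Sequences without a name (1.25% to 1.48% of a library's counts) were left out of library sizes and tests.

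A guide was tested if 3 or more libraries had 10 or more counts of it (136 of 151 guides; 67 hosts). Days were compared with edgeR 4.0.16 in R 4.3.3 (TMM, quasi-likelihood F test, day as the only term), on guides and on counts summed per host with the guide table's factors. This fit estimated the spread from both days together. The biological coefficient of variation, the spread beyond counting error, was 0.043 within day 0, 0.22 within day 10 and 0.15 in the fit of all libraries. P-values were Benjamini-Hochberg adjusted over all tested guides or hosts, with a threshold of 0.05. SE is the fold change divided by the square root of F. Within-screen ratios used CPM plus 1. Each number marks a screen, per the file headers, so libraries of one number form a pair. The correlations of their deviations from the day means were −0.093, −0.20 and −0.017. The code of the fit was run on simulated counts with a smaller spread at day 10 than in these data. That run therefore does not bear on the calls given here.

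Alternatives were DESeq2 1.42.0 (test, size factors), library totals, control guide size factors, a variance per day with limma 3.58.1 (voom), no filter, the replicate block, a GC trend removed per library, and the removal of each library or screen. Leaving out Psmd1 guide 2 was chosen after the data were seen. Other computations used pandas 2.3.3, scipy 1.17.1 and numpy 2.4.6 under Python 3.11.15. The described genes, the lists (by symbol) and the rule for similar hosts (the 3 nearest per host) were chosen with earlier results of these data known. One host of the ribosomal protein list is not reported here, so that list has no count or median. P-values measure the spread between these libraries of 1 cell line.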

Additional observations from a re-analysis of the deposited data

How the results depend on the processing

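Depth was lowest in day 10 of screen 3, where Bzw1 guide 2 rested on 37 counts. When the control guides set the size factors, 0 guides (19 at an unadjusted p under 0.05) and 2 hosts were past the threshold, against 29 and 25, the Bzw1 guide 2 fold change was −0.64 (adjusted p = 0.117), and within-screen log2 ratios in screens 1 and 3 were 0.33 and −0.078 for Bzw1, 0.31 and −0.18 for Eif2s2 and −0.26 and −0.13 for Eif5. Limma voom with a variance per day called 50 guides, with Eif5 at −0.29 and Eif2s2 guide 1 turned to 0.012. It called 3 of the 6 guides. These were Eif5 guide 2 at −0.40 (adjusted p = 0.0307), Bzw1 guide 1 at 0.29 (0.0125) and Bzw1 guide 2 at −0.77 (0.00626). The replicate block gave 12 guides and Bzw1 guide 2 at −0.65 (0.0711), and it changed no other call among the 6 guides and 3 hosts. Removal of the GC trend gave 10 guides and Bzw1 guide 2 at −0.68 (0.0754), and together with the replicate block 10 guides and −0.69 (0.0586). Without a count filter Bzw1 guide 2 was at −0.65 (0.0509). Bzw1 guide 1 also passed the threshold with DESeq2 size factors (0.28, adjusted p = 0.0478), the DESeq2 test (0.28, 0.0442) and Psmd1 guide 2 left out (0.27, 0.0493). The cause was not tested.

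Leaving out single libraries or screens gave 3 to 47 guides and 15 to 30 hosts. Log2 fold changes then ran from 0.17 to 0.35 for Bzw1 guide 1, −0.80 to −0.43 for Bzw1 guide 2, 0.039 to 0.14 for Bzw1, −0.30 to −0.11 for Eif5, −0.24 to −0.067 and −0.38 to −0.14 for Eif5 guides 1 and 2, −0.013 to 0.069 for Eif2s2, and −0.059 to 0.025 and 0.0046 to 0.13 for Eif2s2 guides 1 and 2. Eif2s2 turned to −0.011 without day 10 replicate 1 and to −0.013 without screen 1, and Eif2s2 guide 1 turned to 0.018 without day 10 replicate 3 and to 0.025 without screen 3. The change in the ratio of the guides ran from 0.57 to 1.07 for Bzw1, −0.21 to −0.046 for Eif2s2 and −0.0076, without screen 1, to 0.12 for Eif5. Between hosts it ran from −0.38 to −0.11 (Eif5 to Bzw1), −0.33 to −0.021 (Eif5 to Eif2s2) and 0.043 to 0.085 (Bzw1 to Eif2s2).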
